A study of Homo sapiens with 6 samples.

Results

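The genes described here are 8 transcription factors that define the noradrenergic state of sympathetic neurons and of neuroblastoma, namely PHOX2A, HAND2, GATA2, GATA3, ISL1, TFAP2B, INSM1 and INSM2. They were taken by symbol from a deposited table of 26372 genes, and all 8 were found in it. The cells were SH-SY5Y, a human neuroblastoma line, infected with a lentivirus that carried a short hairpin RNA (shRNA) from a U6 promoter. The knockdown group was 3 libraries of cells with an shRNA against TDP-43 (shT2 in the titles), selected with puromycin as stable knockdown cells. The control group was 3 libraries of cells with a control shRNA (shNC3). The titles give a single shT2 and a single shNC3 line, and the labels do not say whether either was a clone, nor whether the control was selected in the same way. TDP-43, encoded by TARDBP, is an RNA-binding protein that regulates splicing.

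Sympathetic neurons arise from the neural crest, and a small set of factors switches on their identity and then keeps it on by acting on each other's genes. PHOX2A is a paired-type homeodomain factor that activates the gene of dopamine beta-hydroxylase, the enzyme that makes noradrenaline. HAND2 is a basic helix-loop-helix factor, GATA2 and GATA3 are zinc finger paralogues that bind GATA sites, ISL1 is a LIM homeodomain factor and TFAP2B an AP-2 family factor. INSM1 and INSM2 are zinc finger factors of neuroendocrine cells. In neuroblastoma these genes carry large enhancers in noradrenergic cells, while mesenchymal cells of the same tumours use factors such as PRRX1 and the AP-1 proteins instead.

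On the deposited scale the factors were higher in the knockdown. Among the 6 with a mean of 1 FPKM or more in both groups, the rise ranged from 1.48-fold for ISL1 to 2.94-fold for GATA2. INSM2 was 14.6-fold higher, but over a control mean of only 0.602 FPKM. Values were compared as log2(FPKM + 1) by limma, with p-values adjusted by the Benjamini-Hochberg method over the 13434 genes whose mean was 1 FPKM or more and a threshold of 0.05. FPKM is a fragment count divided by transcript length and by sequencing depth. Of the 8 factors 7 were tested and all 7 of those were called higher. Of all tested genes 30.5% were called higher and 35.9% lower, 66.3% in all. Of the 7, INSM2, GATA2 and TFAP2B were called with a log2 fold change of 1 or more, as were 3.31% of tested genes. The groups did not overlap for any of the 8, nor for 70.8% of tested genes. INSM2 reached the minimum through its knockdown level, so its call is no independent count, and INSM1 was too low to be tested. The median log2 fold change of the 7 was 0.78, or 0.75 without INSM2, against -0.02 over all tested genes. With columns rescaled to equal sums the count became 3 higher and 3 lower, as given further on. Of all 13582 genes tested under that scaling 505 were called higher and 11840 lower.

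A few facts of the libraries bear on these values. TARDBP, which the shRNA targets, fell in the knockdown (21.2 ± 0.598 against 49.5 ± 1.49 FPKM in the control, SD, n = 3 each; log2 fold change -1.19, limma adjusted p = 6.69e-08). FPKM does not give the number of reads, but steps between low values put the relative depth at 52.6% to 94.7% of the deepest library in the knockdown and at 84.6% to 100% in the control. Knockdown library 2 was the shallowest. The labels do not state whether libraries of a group are separate cultures, and p-values therefore reflect only the spread among these libraries, which may be technical. An exact permutation test of 3 against 3 libraries cannot go below p = 0.1, and each of the 7 tested factors stood at that p.

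The start regions of 4 of the genes are shown first, because 3 of them (HAND2, ISL1 and GATA3) start back to back with a noncoding gene on the other strand and INSM2 had the largest change. Each is 300 bases, 250 before and 50 after a RefSeq transcript start on GRCh38.p14, written 5′ to 3′ on the gene's own strand. Capitals mark GATAA or its reverse complement TTATC, the letters at the core of sites that GATA factors bind.
HAND2, chr4:173530180-173530479, minus strand: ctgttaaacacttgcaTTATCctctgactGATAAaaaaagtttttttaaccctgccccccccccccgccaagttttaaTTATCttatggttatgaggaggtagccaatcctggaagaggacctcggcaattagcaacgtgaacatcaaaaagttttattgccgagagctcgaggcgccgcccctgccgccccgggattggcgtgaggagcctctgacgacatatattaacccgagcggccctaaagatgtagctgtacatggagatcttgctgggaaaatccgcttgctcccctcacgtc
ISL1, chr5:51383198-51383497, plus strand: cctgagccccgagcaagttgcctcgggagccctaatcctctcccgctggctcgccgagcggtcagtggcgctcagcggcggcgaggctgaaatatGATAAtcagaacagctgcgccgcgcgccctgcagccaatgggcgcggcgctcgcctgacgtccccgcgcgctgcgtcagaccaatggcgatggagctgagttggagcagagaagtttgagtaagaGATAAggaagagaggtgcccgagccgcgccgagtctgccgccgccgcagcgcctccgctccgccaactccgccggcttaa
GATA3, chr10:8053391-8053690, plus strand: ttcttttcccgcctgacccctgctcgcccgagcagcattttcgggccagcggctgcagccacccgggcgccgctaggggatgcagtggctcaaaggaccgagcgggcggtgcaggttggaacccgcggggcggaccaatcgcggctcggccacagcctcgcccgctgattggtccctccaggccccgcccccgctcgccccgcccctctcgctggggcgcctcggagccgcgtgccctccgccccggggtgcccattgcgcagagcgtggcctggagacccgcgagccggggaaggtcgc
INSM2, chr14:35533914-35534213, plus strand: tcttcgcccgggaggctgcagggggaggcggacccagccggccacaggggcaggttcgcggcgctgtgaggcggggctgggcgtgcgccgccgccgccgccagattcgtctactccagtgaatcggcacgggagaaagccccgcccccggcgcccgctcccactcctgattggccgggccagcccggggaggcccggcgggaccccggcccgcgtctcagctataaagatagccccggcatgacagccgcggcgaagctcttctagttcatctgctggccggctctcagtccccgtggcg

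The regions share 272 bases with the start region of HAND2-AS1, 215 with that of ISL1-DT and 291 with that of GATA3-AS1, while INSM2 has no such partner. The HAND2 region held 3 matches to GATAA, the ISL1 region 2, and the GATA3 and INSM2 regions printed here none. RefSeq's table held 13 start regions for 7 of the 8 factors, with 6 for GATA3 alone, and INSM1 had none there. GATAA was present in 3 of the 13, and in 22.7% of the 35116 start regions of that length in the table, so the factors' regions were close to the background. The homeodomain core TAATTA was found in 1 of the 13, that of HAND2, against 4.84% of all regions. The E-box CANNTG, searched like the others on both strands, was found in 8 of 13 against 68.7%, and the AP-2 half-site pair GCCNNNGGC in 6 of 13 against 23.2%. A match is a string of letters and not a site shown to be bound. Of the 13 regions 11 held more CpG dinucleotides than the median of all regions, which was 14. The exceptions were the TFAP2B region, with 5 CpG and 43% GC, and the most downstream GATA3 region, with 5 CpG.

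HAND2 (chromosome 4, 173524969 to 173530229, minus strand, GENCODE v29 on GRCh38) is needed for sympathetic neurons to take on and keep the noradrenergic phenotype. Its level was 347.5, 395.9 and 345.5 FPKM in the knockdown, against 211, 209 and 209.96 FPKM in the control. The lowest knockdown library was well above the highest control library, and knockdown library 2 was the highest of the 6. On the log2(FPKM + 1) scale HAND2 rose by 0.78 (standard error 0.054, limma adjusted p = 2.71e-06), but it turned to -0.12 with columns rescaled to equal sums. HAND2 was the most abundant factor in either group, and it exceeded 98.8% of tested genes in the knockdown and 97.9% in the control.

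PHOX2A (chromosome 11, 72239077 to 72245664, minus strand) stood at 135.5, 151.8 and 122.7 FPKM in the knockdown, against 82.6, 87.3 and 94.2 FPKM in the control. The groups did not overlap, although the spread relative to the mean was wider than for the other 5 factors above 10 FPKM, with a knockdown mean of 136.7 ± 14.6 and a control mean of 88.0 ± 5.82 FPKM (SD, n = 3 each). The rise was 0.63 (standard error 0.078, limma adjusted p = 1.28e-04), and the value turned to -0.27 under equal column sums. ISL1 (chromosome 5, 51383391 to 51394738, plus strand), which sympathetic neuroblasts need to proliferate and to differentiate, had the smallest change of the tested factors. It stood at 60.9, 59.2 and 61.7 FPKM in the knockdown and at 41.6, 42.1 and 39.4 FPKM in the control. Its libraries were tight within either group, and the rise was 0.55 (standard error 0.043, limma adjusted p = 6.11e-06), or -0.34 with columns rescaled to equal sums.

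**Figure D1:**
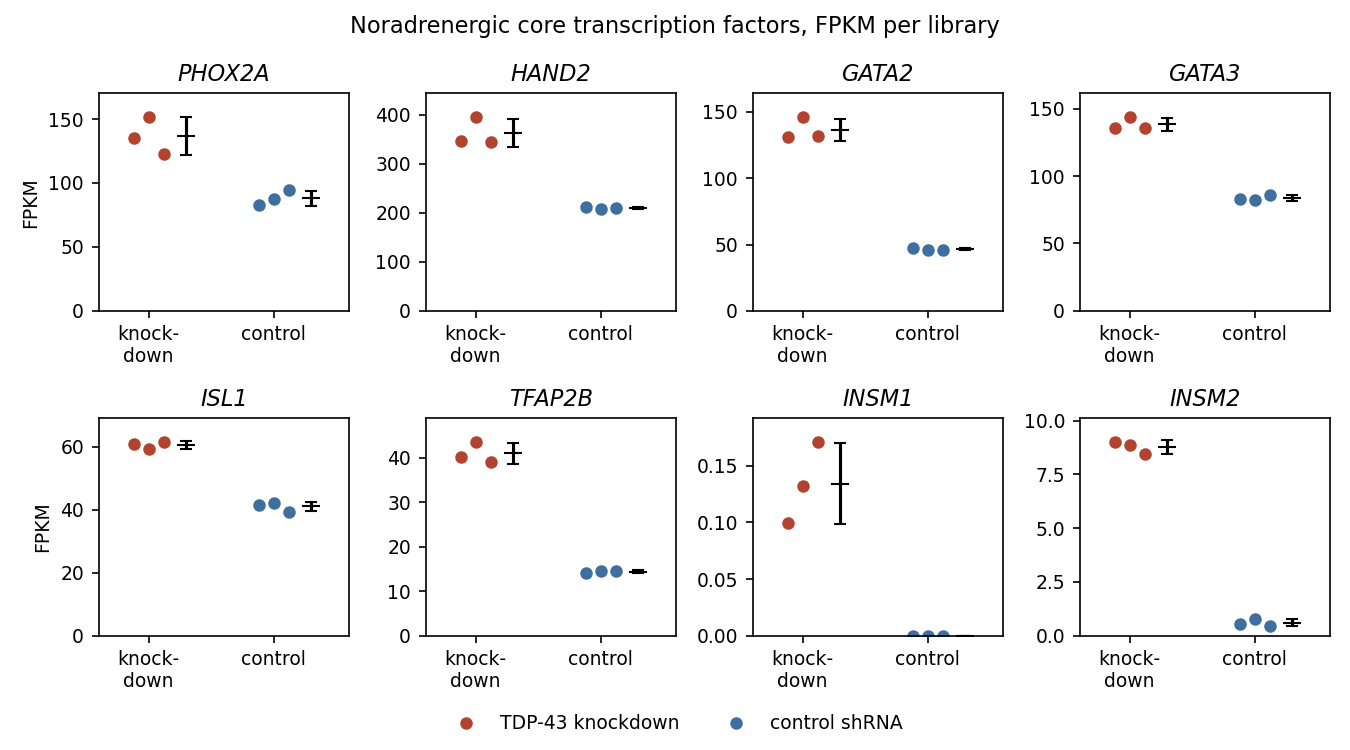
FPKM (y axis, from 0, with its own range in each panel) of the 8 factors in 3 TDP-43 knockdown libraries (left, red) and 3 control shRNA libraries (right, blue); bars give the mean and SD. In every panel the knockdown libraries lie above the control libraries, by the most for INSM2 (8.43 to 9.03 against 0.461 to 0.785 FPKM), while INSM1 reaches at most 0.171 FPKM.

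The GATA paralogues changed unequally. GATA2 (chromosome 3, 128479427 to 128493185, minus strand) acts early in sympathetic precursors and in many blood lineages. It stood at 130.9, 146.4 and 131.9 FPKM in the knockdown, against 47.4, 46.2 and 45.8 FPKM in the control. The lowest knockdown library stood far above the highest control library, and GATA2 rose by 1.53 (standard error 0.050, limma adjusted p = 2.53e-08). GATA3 (chromosome 10, 8045378 to 8075203, plus strand), which keeps sympathetic neurons alive and noradrenergic, stood at 135.8, 143.97 and 135.5 FPKM in the knockdown and at 82.8, 82.1 and 86.3 FPKM in the control. Its groups did not overlap either, but its rise was smaller (0.72, standard error 0.041, limma adjusted p = 8.185e-07), and the value turned to -0.18 under equal column sums, where GATA2 was still higher (0.64).

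A ratio of 2 genes within a library stays the same when its column is multiplied by a constant, although quantile normalization can change it. The ratio of GATA2 to GATA3 was 0.964, 1.02 and 0.973 in the knockdown libraries, against 0.572, 0.563 and 0.531 in the control libraries. GATA2 was thus level with GATA3 in the knockdown and well below it in the control. The log2 ratio differed by 0.83 between the groups, and an exact permutation test, two-sided, gave p = 0.1, its lowest possible value (adjusted p = 0.3 over 3 ratios). GATA4, a paralogue of endoderm and heart, went the other way, at 8.98 ± 0.335 FPKM in knockdown libraries and 11.8 ± 0.781 in control libraries (log2 fold change -0.36, limma adjusted p = 0.001098). GATA1, GATA5 and GATA6 averaged under 0.1 FPKM in either group.

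TFAP2B (chromosome 6, 50818723 to 50847613, plus strand), an AP-2 factor of the neural crest and its sympathetic derivatives, stood at 40.2, 43.6 and 39.1 FPKM in the knockdown and at 14.0, 14.6 and 14.5 FPKM in the control. All knockdown libraries lay far above the control libraries, and the rise was 1.45 (standard error 0.053, limma adjusted p = 5.41e-08), with 0.58 under equal column sums. It exceeded 90.4% of tested genes in the knockdown and 62.1% in the control. It was the AP-2 gene in use here, since TFAP2A, TFAP2C, TFAP2D and TFAP2E averaged at most 1.05 FPKM in either group.

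INSM2 and INSM1 are intronless, with a single exon each in GENCODE v29. INSM2 (chromosome 14, 35534042 to 35537054, plus strand) stood at 9.03, 8.88 and 8.43 FPKM in the knockdown, against 0.560, 0.785 and 0.461 FPKM in the control. The gene was near the bottom of the measured range in the control, and its rise of 2.61 (standard error 0.092, limma adjusted p = 3.96e-08) was 18th of all tested genes. This value depends on the pseudocount for a gene so low, and it was 3.69 at a pseudocount of 0.1. INSM1 (chromosome 20, 20368121 to 20370949, plus strand), the more widely used marker of neuroendocrine cells, was listed at 0.0995, 0.132 and 0.171 FPKM in the knockdown and at 0 in all control libraries. It was tested only with no minimum level, where it rose by 0.18 (limma adjusted p = 0.00541). An exact 0 in such a table can be a failed estimate, so no fold is given.

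The order of the levels, which FPKM allows because it is per length, changed little. In the knockdown HAND2 came first, followed by GATA3, PHOX2A and GATA2, whose ranges overlapped, and then by ISL1, TFAP2B, INSM2 and INSM1. In the control HAND2 was followed by PHOX2A and GATA3, whose ranges overlapped, and then by GATA2, ISL1, TFAP2B, INSM2 and INSM1. The 8 genes together summed to 845 to 949.8 FPKM in the knockdown libraries and to 480 to 490.6 FPKM in the control libraries. Within that sum GATA2 held 15.4% ± 0.193 in the knockdown and 9.60% ± 0.264 in the control (SD, n = 3 each), and TFAP2B 4.63% ± 0.0433 against 2.97% ± 0.0559. HAND2 held 41.0% ± 0.643 in the knockdown and 43.4% ± 0.605 in the control.

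Of the column scalings tried, equal column sums alone turned the direction of 4 factors. With columns rescaled by the median of ratios, all 7 tested factors were called higher, with a median of 0.79. Column sums were 2123050 to 2449950 FPKM in knockdown libraries, against 1182980 to 1226730 FPKM in control libraries. The small nucleolar RNA SNORD3A made up 56.5% to 62.6% of the sum in knockdown libraries and was listed at 0 in every control library. RN7SK, which restrains transcription elongation, had a value of 0 in every knockdown library and made up 17.9% to 18.5% of the sum in control libraries. As for INSM1, an exact 0 of these RNAs can be a failed estimate. Equal column sums shifted the median log2 fold change over all genes to -0.82, and the share of calls that were higher was then 4.1%. That share was 45.9% for the values as deposited and 58.7% after quantile normalization. INSM2, GATA2 and TFAP2B were still called higher, at 2.06, 0.64 and 0.58. PHOX2A, GATA3 and ISL1 were called lower, and HAND2 did not pass (adjusted p = 0.233). The 7 factors stood 0.49 to 2.88 above the all-gene median of that scaling. With SNORD3A, RN7SK and 4 other small RNAs left out of the sums, which together held 79.7% to 82.0% of them in knockdown and 63.8% to 64.9% in control libraries, all 7 were again called higher.

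**Figure D2:**
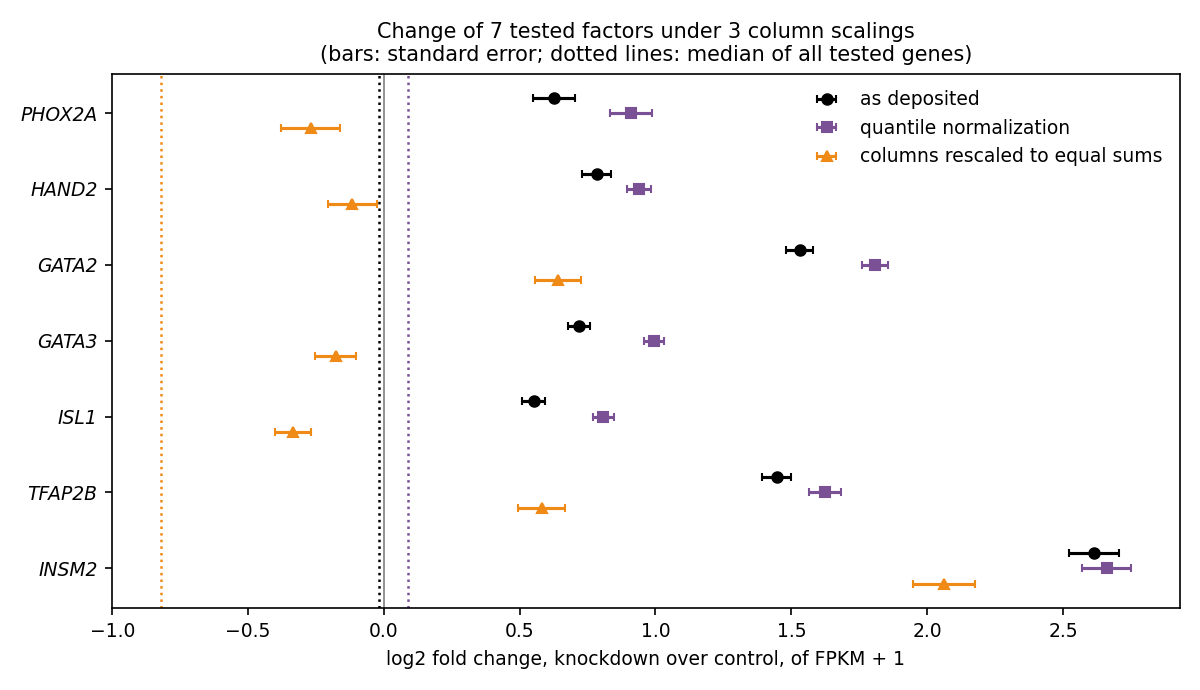
Log2 fold change of FPKM + 1, knockdown over control (x axis), of the 7 tested factors under 3 column scalings; bars are standard errors and dotted lines the median of all tested genes under the same scaling. INSM2, GATA2 and TFAP2B lie right of 0 under each, while PHOX2A, HAND2, GATA3 and ISL1 lie left of 0 when columns have equal sums (-0.34 to -0.12), all of them right of the -0.82 line.

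Noncoding genes next to the factors were followed by symbol. HAND2-AS1, which starts from the HAND2 start region on the plus strand (272 of 300 bases shared), stood at 58.7, 49.99 and 67.1 FPKM in the knockdown and at 28.7, 26.1 and 24.4 FPKM in the control. It rose by 1.11 (limma adjusted p = 1.75e-05), with 0.23 under equal column sums. Its knockdown libraries were lowest where HAND2 was highest, in library 2, and the ratio of HAND2 to HAND2-AS1 was 5.92, 7.92 and 5.15 in the knockdown, against 7.36, 7.99 and 8.62 in the control. The groups overlapped in this ratio (exact permutation p = 0.2). The annotated exons of this pair share 867 bases, and the sources used here do not state whether counting used strand, and reads of the pair may not be told apart.

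GATA3-AS1 shares 291 of 300 bases of a GATA3 start region and stood at 21.6, 24.0 and 21.4 FPKM in the knockdown, against 13.6, 14.7 and 14.2 FPKM in the control. Its rise was 0.62 (limma adjusted p = 2.53e-05), or -0.23 with columns rescaled to equal sums. The ratio of GATA3 to GATA3-AS1 was 5.99 to 6.33 in the knockdown and 5.58 to 6.11 in the control. These ranges overlapped (exact permutation p = 0.3). GATA2-AS1 stood at 7.61 ± 1.17 FPKM in knockdown libraries and 6.72 ± 0.708 in control libraries and was not called (log2 fold change 0.15, limma adjusted p = 0.242), while it was called lower with equal column sums (-0.64, adjusted p = 6.08e-04). TFAP2A-AS1 was near 0 in every library.

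**Figure D3:**
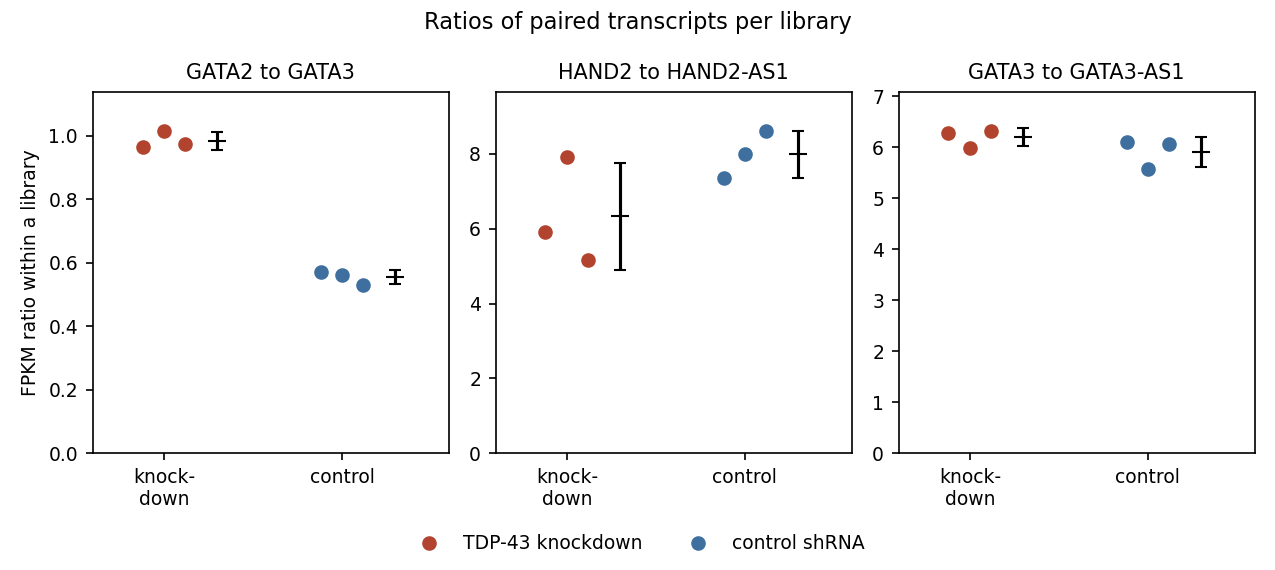
FPKM ratio within each library (y axis, from 0) of GATA2 to GATA3, HAND2 to HAND2-AS1 and GATA3 to GATA3-AS1, in 3 TDP-43 knockdown libraries (left, red) and 3 control shRNA libraries (right, blue), with mean and SD. The GATA2 to GATA3 ratio separates the groups (0.964 to 1.02 against 0.531 to 0.572), and the other ratios overlap.

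The nearest tested genes on either side of each factor did not move as a block. Of these 16 neighbours 8 were called higher, 5 lower and 3 not called on the deposited scale. The shares of all tested genes were 30.5% higher and 35.9% lower. HAND2-AS1 and GATA3-AS1, which overlap their factors, are among the 8. INSM2 lies 1.30 kb from RALGAPA1, which rose by 0.60, and 129 kb from NFKBIA, the gene of an NF-kappaB inhibitor, which had a log2 fold change of -0.92. HAND2 lies 119 kb from SCRG1, which had one of -2.01. PHOX2A overlaps INPPL1 (-0.23) and lies 39.8 kb from CLPB (0.70). Large distances separate ISL1 and TFAP2B from any tested gene, with 537 kb the shortest of their 4. TDP-43 binds UG-rich RNA, and the longest coding transcript held TGTGTG in 4 of the 8 factors (GATA3, HAND2, ISL1 and TFAP2B) against 70.8% of 11812 tested genes. Introns were not searched. The factors' transcripts ran from 1699 to 5773 bases, and length was not matched to the background. INSM1, without a match, is not among the tested genes.

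Other transcription factors of the noradrenergic programme moved with them on the deposited scale. Of 22 tested genes on a list of 25, 19 rose, 1 fell and 2 were not called, with a median of 0.88. The list had been drawn up with earlier results of these data known. The homeodomain genes DLX5 and SIX3 rose by 2.32 and 2.26. HAND1, the paralogue of HAND2, stood at 39.8 ± 2.39 FPKM in knockdown libraries and 21.5 ± 1.66 in control libraries (SD, n = 3 each), a rise of 0.86 that turned to -0.02 under equal column sums. PBX3, a partner of HOX proteins, was the gene that fell (-0.28). With columns rescaled to equal sums the list had 9 higher and 9 lower, against 505 and 11840 of all 13582 tested genes. Its median stood 0.83 above that of all genes.

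Of 18 tested proteins that these factors work with, 8 rose, 6 fell and 4 were not called on the deposited scale (median 0.08). With equal column sums 2 were higher and 14 lower (median -0.78), against 505 and 11840 of all 13582 tested genes (median -0.82). The LIM-only proteins, which bridge GATA and basic helix-loop-helix factors through LDB1, went opposite ways. LMO1, a neuroblastoma susceptibility gene, stood at 26.4, 28.5 and 23.3 FPKM in the knockdown and at 5.22, 7.03 and 7.80 FPKM in the control. LMO3, which also acts in neuroblastoma, stood at 12.1 ± 1.69 FPKM in knockdown libraries and 2.62 ± 0.238 in control libraries (SD, n = 3 each). LMO4 stood at 3.13, 2.62 and 3.60 FPKM in the knockdown, against 21.3, 20.3 and 20.1 FPKM in the control. The log2 fold changes were 1.83, 1.85 and -2.40 (limma adjusted p of 2.89e-06 or less), and none of the 3 turned with columns rescaled to equal sums.

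LDB1 rose by 0.69 and its paralogue LDB2 fell by 0.88. KDM1A, the histone demethylase that INSM1 recruits, rose by 0.60. LDB1 and KDM1A were at -0.19 and -0.29 with columns rescaled to equal sums. ZFPM2, a cofactor of GATA proteins, stood at 0.142 ± 0.0735 FPKM in knockdown libraries and 2.71 ± 0.102 in control libraries (SD, n = 3 each), and CITED2, a coactivator of AP-2 factors, fell by 1.27. E-proteins that pair with HAND2 differed among themselves. TCF3 rose by 0.45, TCF4 fell by 0.43, and TCF12 stood at 42.1 ± 0.984 FPKM in knockdown libraries and 42.8 ± 0.657 in control libraries, a difference that did not pass on the deposited scale but did with quantile normalization (0.24) and with equal column sums (-0.90). With columns rescaled to equal sums TCF3 was at -0.43.

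Of 18 tested genes that noradrenergic cells use to make, store and release transmitter or that mark them, 10 rose, 6 fell and 2 were not called on the deposited scale, with a median of 0.23. With equal column sums 5 were higher and 12 lower, with a median of -0.62. Of all 13582 genes tested with equal column sums 505 were higher and 11840 lower, with a median of -0.82. TH, the rate-limiting enzyme of catecholamine synthesis, was listed at 0 in every library. DBH, the PHOX2A target named above, stood at 28.4, 34.3 and 31.1 FPKM in the knockdown and at 37.5, 37.7 and 39.2 FPKM in the control (log2 fold change -0.28, limma adjusted p = 0.00526). The difference was -0.05 with quantile normalization and did not pass there (adjusted p = 0.565). DDC, the decarboxylase between these enzymes, stood at 25.3 ± 1.64 FPKM in knockdown libraries and 25.2 ± 0.210 in control libraries (SD, n = 3 each) and was not called, while it was called at 0.18 with quantile normalization and at -0.87 with equal column sums. The vesicular transporter gene SLC18A1 fell by 0.95.

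The largest rises of that list were in CHGA, MAOA, ALK and SCG3. MAOA, which degrades catecholamines, stood at 26.3, 24.7 and 26.6 FPKM in the knockdown and at 2.61, 3.05 and 2.60 FPKM in the control. CHGA and SCG3, of granules, and ALK, a receptor kinase of neuroblastoma, rose by 3.32, 1.54 and 2.61. NPY, the neuropeptide of sympathetic neurons, was the largest fall, at 23.997, 25.9 and 24.8 FPKM in the knockdown against 437.5, 404.6 and 442.8 FPKM in the control. SCG2 had a log2 fold change of -3.48, and RET, a receptor of sympathetic neuroblasts, one of -0.32. None of these 7 genes turned with columns rescaled to equal sums.

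**Figure D4:**
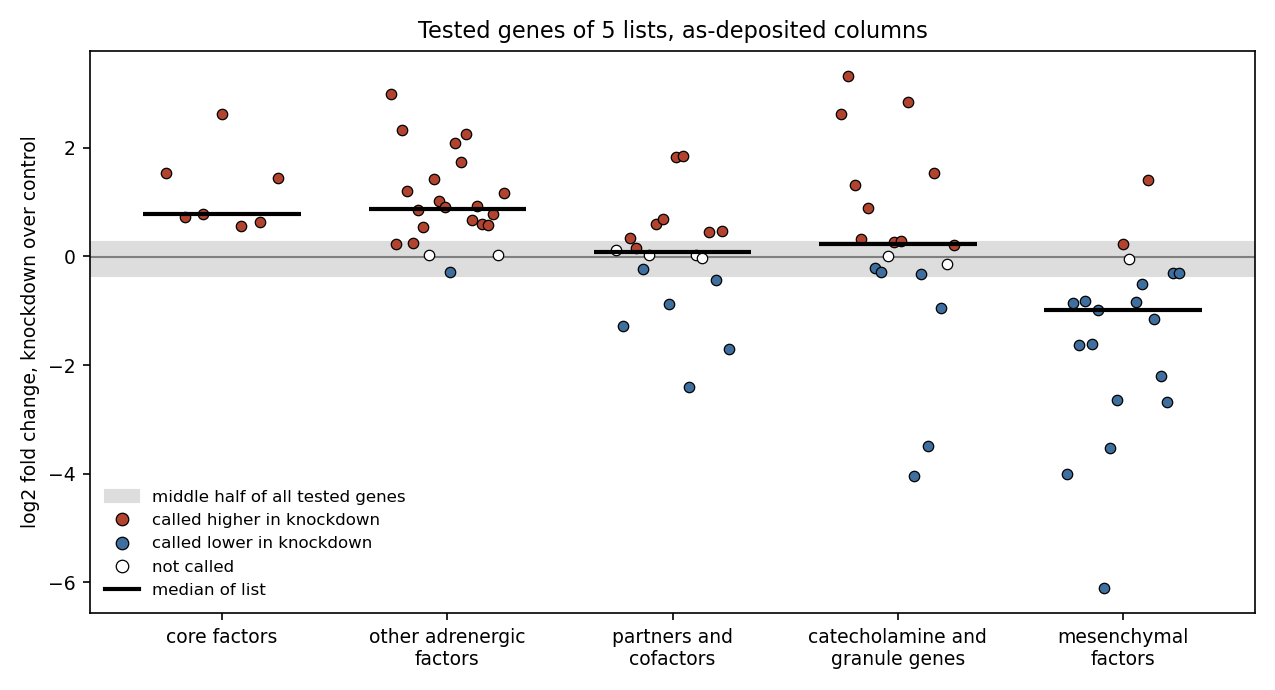
Log2 fold change on the deposited scale, knockdown over control (y axis), of the tested genes of 5 lists; each point is a gene, black lines are list medians, the grey band holds the middle 50% of all tested genes and the grey line their median (-0.02). All 7 tested core factors are called higher (median 0.78), the partners and the catecholamine and granule genes lie on both sides of 0 on this scale (medians 0.08 and 0.23), and the mesenchymal factors lie mostly below (median -0.99).

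Mesenchymal genes mostly went the other way from the core factors on the deposited scale. Of 19 tested mesenchymal transcription factors 16 fell, 2 rose and 1 was not called (median -0.99). FOSL1, an AP-1 subunit, stood at 0.595, 0.290 and 0.273 FPKM in the knockdown and at 20.6, 20.1 and 22.6 FPKM in the control. RUNX1, YAP1 and PRRX1 had log2 fold changes of -3.54, -2.68 and -6.10. The exceptions were TWIST1 and SNAI1, with rises of 1.40 and 0.24, of which SNAI1 turned to -0.62 with columns rescaled to equal sums. All 15 mesenchymal cell markers fell, of which PRRX1 and YAP1 are also on the list of mesenchymal factors. The summed level of the markers was 656.7 to 686.6 FPKM in the knockdown and 4303 to 4377 FPKM in the control. ANXA1 and CAV1 among the markers were listed at 0 in every knockdown library.

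In bulk RNA fewer cells of a type and less RNA per cell cannot be told apart, and the part of the mesenchymal markers in the rise of the core factors was not tested. Of the 9 tested noradrenergic markers 5 rose, 3 fell and 1 was not called on the deposited scale. With equal column sums 3 were higher and 6 lower, against 505 and 11840 of all 13582 tested genes. Most of these markers are also on the list of catecholamine and granule genes, so the 2 counts are not separate. Of 9 Schwann and glial markers 4 were tested, and 3 rose and 1 fell, with a summed level of 52.8 to 53.7 FPKM in the knockdown and 45.4 to 48.0 in the control. Their defining gene SOX10 was at 0.217 to 0.435 FPKM in knockdown libraries and at 0.217 to 0.274 FPKM in control libraries, which overlapped. Markers of 293T cells, in which the virus was packaged, summed to at most 0.0793 FPKM in any library, with EMX2 and HOXA11 at 0 in all. Of 5 immune and endothelial markers CD68 alone was tested, and it fell by 2.14. The 5 summed to 2.18 to 2.93 FPKM in the knockdown and 14.1 to 15.4 in the control.

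Genes whose profile over the 6 libraries was closest to each factor were found by the distance between log2(FPKM + 1) values centred on each gene's mean. With libraries this close within a group, a short distance mostly reflects a like difference between the groups. It does not show shared regulation, which was not tested. For HAND2 the nearest was TLX2, a homeobox gene of neural crest derivatives, at 33.2 ± 2.42 FPKM in knockdown libraries and 18.8 ± 0.240 in control libraries (SD, n = 3 each), with a distance of 0.041. It was followed by SLC25A6. For GATA2 they were APC2 and PKDCC, for GATA3 UBE2O and CLCN6, and for ISL1 C9orf72 and PHACTR2. For TFAP2B they were PKDCC and the neurofilament gene NEFM, and for PHOX2A an unnamed locus and FBRSL1. INSM2 was nearest to ALK and to NTRK3, a neurotrophin receptor gene at 12.5 ± 0.223 FPKM in knockdown libraries and 1.18 ± 0.109 in control libraries (SD, n = 3 each). Only 7 tested genes lay within a distance of 0.3 of INSM2, against 492 for HAND2 and 1328 for ISL1. Genes with a modest change had many more neighbours in profile.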

How the data were processed

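Poly(A) RNA of 6 SH-SY5Y libraries was sequenced, 3 with an shRNA against TDP-43 and 3 with a control shRNA, with a strand-marking library kit, as the labels' protocols state. The deposited values are FPKM. TopHat2 2.1.0, SAMtools, Cuffdiff 2.2.1 and the hg38 build appear, without roles, among the submitters' processing notes. Neither annotation nor strand setting is stated there. Absolute depth is unknown. Groups and numbers came from the sample titles, and there were no further sample columns.

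Tests used log2(FPKM + 1), a scale on which fold changes of low genes are understated. Genes averaging at least 1 FPKM, 13434 in all, were fitted by limma 3.58.1 (R 4.3.3) with an intensity trend, two-sided, and adjusted by the Benjamini-Hochberg method. The fit was tested on simulated data. Ratios within a library used a pseudocount of 0.01 and an exact two-sided permutation test. Steps between values below 0.3 FPKM, set against control library 1, gave relative depth. Alternatives were other pseudocounts, minimum levels, scalings, limma settings, a replicate block and leaving out each library.

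The members and lists were chosen with earlier results of these data known. Named were all members and TARDBP, up to 4 called genes with the largest rise and fall of each list, all genes of lists of 6 or fewer, the 2 genes nearest in profile and the nearest tested gene on either side. Marker lists are given as counts and sums. SOX10, CD68, DDC, DBH, TH, HAND1, the GATA and AP-2 paralogues and the E-proteins were picked after their values were seen where the rule does not reach them. Some genes and 1 planned ratio are not reported here. Gene coordinates (GENCODE v29, GRCh38) and RefSeq start regions (GRCh38.p14) count from 1. Python 3.11.15 with numpy 2.4.6, pandas 2.3.3, scipy 1.17.1 and matplotlib 3.10.9 did the rest.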

Additional observations from a re-analysis of the deposited data

How the results depend on the processing

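Of the 18 alternatives to the fit, equal column sums changed the direction of tested factors, with PHOX2A at -0.27, HAND2 at -0.12, GATA3 at -0.18 and ISL1 at -0.34. The factors called higher then numbered 3 and those called lower 3, with a median of -0.12, and over all genes 505 were higher and 11840 lower against 4092 and 4817 on the deposited scale. The median was 0.99 with quantile normalization. With a minimum mean of 5 FPKM, 6 factors were tested and all 6 called higher, since INSM2 dropped out. Of all 9640 genes tested there 2761 were called higher. With no minimum all 8 were, as were 4064 of 26372 genes. The call added there was INSM1, whose control values of 0 can be failed estimates, so it is no independent count. Leaving out each library kept all 7 called, with medians of 0.72 to 0.82, and moved TARDBP between -1.21 and -1.17. Counts over the other gene lists, markers aside, moved by over 1.5 times with equal column sums. The exception was the count of mesenchymal transcription factors called lower, 21 against 16 on the deposited scale. Some marker counts moved by over 1.5 times with the minimum level. With a minimum mean of 5 FPKM 1 Schwann and glial marker was called higher against 3, and with no minimum 2 immune and endothelial markers were called lower against 1 and 1 of 4 293T markers was called higher.

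The numbers in the titles did not pair the libraries, since the deviations of same-numbered libraries correlated at -0.02, -0.19 and -0.09 over tested genes. With a replicate block 7 factors were called higher and 0 were called lower. Each number occurs once in either group, so a block can change p-values but not fold changes. The median of 0.78 and the TARDBP fall of 1.19 were therefore fixed in advance and are no check. The differences in log2 ratio were likewise fixed, at 0.83 for GATA2 to GATA3, -0.36 for HAND2 to HAND2-AS1 and 0.07 for GATA3 to GATA3-AS1. Without each library these ran from 0.79 to 0.85, from -0.53 to -0.22 and from 0.03 to 0.09. A planned ratio of INSM2 to INSM1 could not be formed because INSM1 was listed at 0 in the control. Depth limits INSM1 most, at under 0.2 FPKM.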
